A study of Drosophila melanogaster with 6 samples.

Results

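Amy-p, Amy-d, Amyrel and tobi are 4 carbohydrate-digesting genes of the fruit fly that were followed here in whole adult females on a high-fat diet. Every probe set that the array annotation assigns to any of the 4 genes was taken, which gave 3 of the 18769 probe sets of the array other than its controls, which name 12549 genes in all. Amyrel and tobi had 1 probe set each. Amy-p and Amy-d shared 1, which names both genes, so the RNA of this pair could not be separated and is given as Amy-p/Amy-d. All 3 probe sets were bright enough to be tested, among 11261 in all.

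Flies of both groups were females of w1118, a white-eyed laboratory strain, moved at an age of 3 to 5 days to their food in normal oxygen and frozen after 1 week at 10 to 12 days. The HFD group received food with coconut oil at 20% weight per volume, and the RD group the regular Jazz-Mix food. Whole-body RNA of each sample was put on an Affymetrix Drosophila array, and each diet had 3 arrays. Separate cultures of flies are not named in the labels for the 3 samples of a diet, and the p-values therefore cover the spread between these samples alone, which may be technical.

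α-Amylase cuts starch into maltose and short glucose chains, and maltases and other glucosidases then release glucose, which transporters carry into the cells of the gut and the haemolymph. In Drosophila the amylases are secreted by enterocytes of the midgut, and dietary sugar is known to lower their RNA and activity, with the activin-type ligand Dawdle (daw) acting in that repression. Amyrel is a diverged paralogue of the amylase pair. The name tobi stands for target of brain insulin: it codes for an α-glucosidase of gut and fat body whose RNA is known to depend on the insulin-producing cells of the brain and on adipokinetic hormone, the fly counterpart of glucagon.

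Values are MAS5 signals, 1 linear brightness value per probe set and array, and a difference is HFD minus RD in log2(signal + 1), given with its standard error (SE) from limma fitted over all tested probe sets. A probe set was called at an adjusted p under 0.05. Arrays correlated at 0.977 to 0.986 within a diet and 0.972 to 0.98 between diets (Pearson's r across probe sets), and no 2 arrays were identical. The array median was 60.68 to 63.8 on HFD and 52.76 to 55.31 on RD. RNA quality moved with the diets: the 3′ over 5′ signal ratio of the actin control, which is higher when the RNA or its labelled copy is shorter, was 8.35 to 9.29 on the HFD arrays and 4.90 to 7.85 on the RD arrays. RD array 1 had the ratio of 7.85, nearest to HFD. Markers of other tissues moved as well, with all 5 tested muscle and all 5 tested neuron markers higher on HFD and 5 of 8 ovary and eggshell markers lower. Over all tested probe sets, 12.9% were called higher and 6.63% lower. Of 6 male reproduction genes listed, 4 were under the filter on dim probe sets and the other 2, Mst57Da and SP, lay between 29.65 and 81.86 on the 6 arrays.

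All 3 probe sets were lower on HFD and all 3 were called, against 6.63% of the tested probe sets called lower and 19.5% called in either direction. The members, and the gene lists below, were chosen with earlier results of these data known. Counts set against such backgrounds are therefore descriptions and not independent evidence. The estimated level on HFD was 70.7% of the RD level for Amy-p/Amy-d, 60.5% for Amyrel and 43.7% for tobi. For Amy-p/Amy-d and Amyrel, every HFD array lay below every RD array, as it did for 18.7% of the tested probe sets. The groups overlapped for tobi. Since these are whole bodies, fewer cells of a type and less RNA per cell cannot be told apart.

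**Figure D1:**
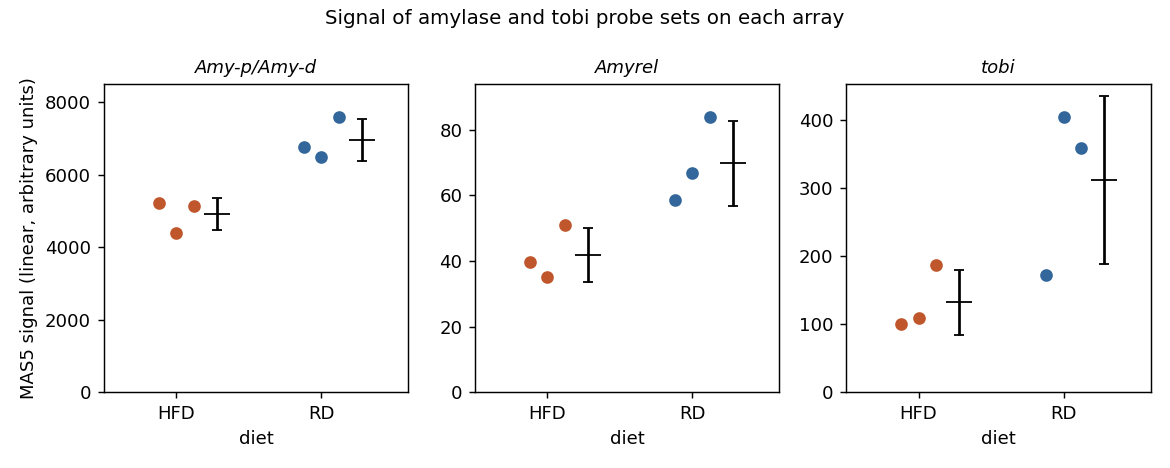
MAS5 signal (linear, arbitrary units, axes from 0) of the probe sets of Amy-p/Amy-d, Amyrel and tobi on each of the 3 HFD and 3 RD arrays, with replicates 1 to 3 from left to right within a diet. Each point is 1 array, and the black bar beside it is the mean with its SD (n = 3). HFD points lie below all RD points for the amylases, and for tobi the HFD array at 187.08 lies above the RD array at 171.98.

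The classical amylase pair had a high signal on both diets. Amy-p/Amy-d had signals of 5216.86, 4407.02 and 5150.7 on HFD arrays 1 to 3, against 6780.81, 6496.06 and 7607.11 on RD arrays 1 to 3. The highest HFD signal was thus below the lowest RD signal, and arrays of a diet lay within a ratio of 1.18 on HFD and 1.17 on RD. The mean was 4925 ± 449.7 on HFD and 6961 ± 577 on RD (SD, n = 3 each). The log2 difference was -0.50 ± 0.082 (SE; limma, adjusted p = 0.00641), a level 1.41-fold lower on HFD with a 95% interval of 1.24 to 1.61. The array maxima were 15306.5 to 16256.02, and whether signals as bright as these were near saturation was not tested. This fall had the smallest error of the 3, and its call held without any 1 of the 6 arrays (log2 difference -0.55 to -0.42, adjusted p 0.00770 to 0.0231).

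Amyrel was dim on every array. Its signals were 39.52, 34.98 and 50.94 on HFD arrays 1 to 3, against 58.5, 66.77 and 83.93 on RD arrays 1 to 3. The groups did not overlap, and the gap between HFD array 3 and RD array 1 was narrow. The mean was 41.8 ± 8.22 on HFD and 69.7 ± 13.0 on RD (SD, n = 3 each), and the filter on dim probe sets corresponds to a signal of 27.95. The log2 difference was -0.73 ± 0.19 (SE; limma, adjusted p = 0.0336), which is 1.65-fold lower on HFD (95% interval 1.22 to 2.24). At such signals the size of the difference depends on the constant added before log2, and with 50 in place of 1 it was -0.38 (adjusted p = 0.0332). The call was lost without HFD array 1 (-0.70, adjusted p = 0.101), HFD array 2 (-0.61, adjusted p = 0.107), RD array 2 (-0.75, adjusted p = 0.0794) or RD array 3 (-0.59, adjusted p = 0.120), while the direction stayed. Over all alternatives the adjusted p of Amyrel was 0.000129 to 0.325. The lowest came from a fit with array weights, whose estimation stopped before it converged.

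The glucosidase gene tobi had the largest estimated fall of the 3, though the smallest with the 3′/5′ ratio of the controls as a covariate, and the widest spread. Its signals were 101.06, 109 and 187.08 on HFD arrays 1 to 3, against 171.98, 405.34 and 359.96 on RD arrays 1 to 3. Of the RD arrays, array 1 lay inside the range of HFD, while the other two lay well above every HFD array. The mean was 132 ± 47.5 on HFD and 312 ± 124 on RD (SD, n = 3 each). The log2 difference was -1.20 ± 0.35 (SE; limma, adjusted p = 0.0467), or 2.29-fold lower on HFD with a 95% interval of 1.32 to 3.99. Only 46 of the 747 probe sets called lower on HFD had a larger fall. Without RD array 1 the difference was -1.58 (adjusted p = 0.00397), and without HFD array 3 it was -1.47 (adjusted p = 0.0388). The call was lost without HFD array 1 (-1.03, adjusted p = 0.152), HFD array 2 (-1.08, adjusted p = 0.123), RD array 2 (-0.96, adjusted p = 0.130) or RD array 3 (-1.05, adjusted p = 0.136). Of 17 alternatives, 8 kept the call of tobi, all 17 kept the direction, and the adjusted p was 0.000151 to 0.614. The lowest again came from the fit with array weights, which had not converged.

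**Figure D2:**
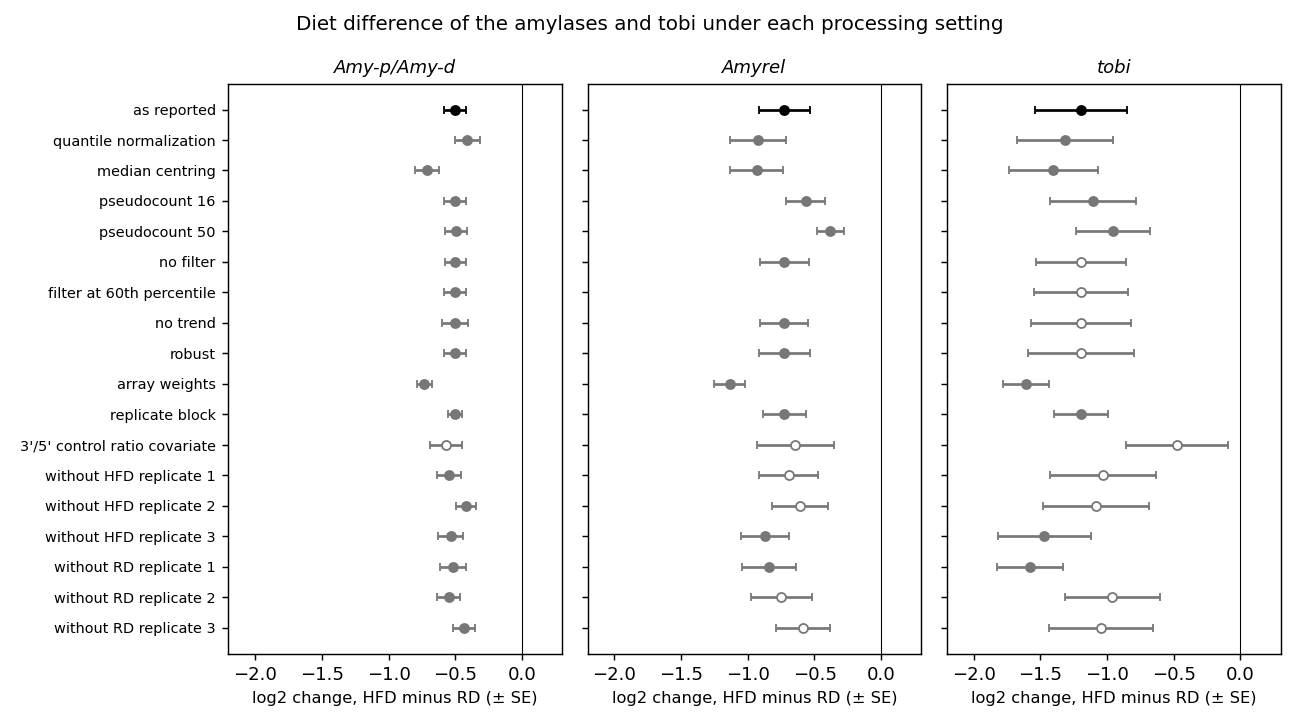
Log2 difference, HFD minus RD, with its SE for the 3 probe sets as reported (black, top) and under each alternative setting (grey). Filled points passed an adjusted p of 0.05 and open points did not; no point is drawn for Amyrel under the filter at the 60th percentile, which removed it. All points lie below 0, and the points of tobi range from -1.61 to -0.48.

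The arrays of a diet agreed less for tobi than for most probe sets of similar brightness. Its SD within a diet, pooled over both diets, was 0.58 on the log2 scale, while the median over the 500 probe sets nearest to it in mean signal was 0.13, and 98.8% of those had a lower SD. The highest tobi signal was 1.85 times the lowest on HFD and 2.36 times on RD. For Amy-p/Amy-d the pooled SD was 0.13, against a median of 0.062 over its 500 nearest, 87% of which had a lower SD. For Amyrel it was 0.27, against 0.21, with 71.6% lower. These are descriptions of 6 arrays, and no test was made of them.

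Whether the members differed from each other in the size of their fall was tested on the difference between 2 probe sets of the same array, which does not depend on the scaling of arrays. For tobi minus Amy-p/Amy-d this within-array log2 difference was -5.26 ± 0.45 on HFD and -4.56 ± 0.66 on RD (SD, n = 3 each), a shift of -0.70 (exact permutation p = 0.2, two-sided). The shift was -0.47 for tobi minus Amyrel (exact permutation p = 0.3) and -0.23 for Amyrel minus Amy-p/Amy-d (exact permutation p = 0.2). Over the 3 pairs the adjusted p was 0.3 each (exact permutation test), the smallest unadjusted p that 3 against 3 arrays allow is 0.1, and HFD and RD overlapped in every pair. This design could not reach the threshold, so the test does not settle whether the falls differed in size. With the control 3′/5′ ratio as a covariate, a setting added once the data had been seen, the shift turned to 0.096 for tobi minus Amy-p/Amy-d and to 0.17 for tobi minus Amyrel.

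Across the 6 arrays the members moved together to different degrees, as a description of points that share diet and array. Pearson's r on the log2 scale was 0.94 for Amy-p/Amy-d and Amyrel, 0.918 for Amyrel and tobi and 0.775 for Amy-p/Amy-d and tobi. For deviations from the mean of each diet, r was 0.748, 0.772 and 0.217 in the same order of pairs. HFD array 3 was the highest HFD array for Amyrel and tobi, and RD array 1 the lowest RD array for both, while RD array 2 was the lowest for Amy-p/Amy-d.

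The signal of tobi was lower on the arrays with a high 3′/5′ ratio of the controls. Averaged over the controls for actin, GAPDH and eIF-4a, the log2 ratio was 2.66, 2.49 and 2.63 on HFD arrays 1 to 3 and 2.52, 1.93 and 2.17 on RD arrays 1 to 3. The 3 HFD arrays and RD array 1, with the 4 highest ratios, had tobi signals of 101.06 to 187.08, and the other 2 arrays had 405.34 and 359.96. With this ratio as a covariate the log2 difference of tobi was -0.48 ± 0.38 (SE; limma, adjusted p = 0.614), that of Amyrel -0.64 ± 0.29 (adjusted p = 0.325) and that of Amy-p/Amy-d -0.57 ± 0.12 (adjusted p = 0.0578). None of the 3 passed in this fit, in which 266 of the 11261 tested probe sets did. The part of RNA quality in the 3 falls was not tested. For Amy-p/Amy-d the adjusted p was 3.19e-05 to 0.0578 over all alternatives, the lowest with the array weights that had not converged. HFD array 2 and RD array 1 had ratios close to each other, and their signals were 4407.02 and 6780.81 for Amy-p/Amy-d, 34.98 and 58.5 for Amyrel and 109 and 171.98 for tobi. These are single arrays, and HFD array 2 was the lowest HFD array for both amylase probe sets. HFD array 3, at a ratio of 2.63, had 5150.7 for Amy-p/Amy-d, 50.94 for Amyrel and 187.08 for tobi. Of these, only the tobi signal lay above that of RD array 1.

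**Figure D3:**
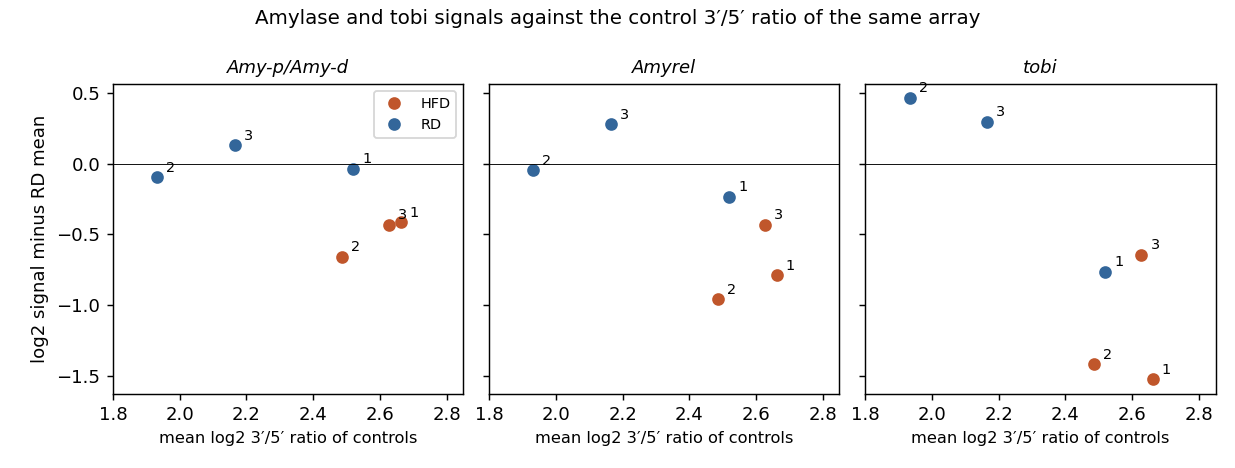
Log2 signal minus the RD mean for the 3 probe sets (vertical axis) against the log2 3′/5′ ratio of the same array, averaged over 3 control transcripts (horizontal axis), for the 3 HFD and 3 RD arrays, with replicate numbers beside the points. RD array 1, at a ratio of 2.52, lies among the HFD arrays on the horizontal axis; it stays above them for both amylase probe sets and falls among them for tobi.

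Markers of gut cell types and of the fat body were set beside the amylases and tobi. The backgrounds for these counts are 12.9% of tested probe sets called higher and 6.63% called lower. Of 10 enterocyte markers listed, 7 were tested, and 1 was called higher (dve) and 1 lower (the trypsin gene thetaTry). Both counts are near the backgrounds. The median log2 difference of the 7 was -0.089 against 0.0083 over all tested probe sets. The summed signal of these 7 was 11930.57 to 13851.49 on HFD and 13923.73 to 15060.19 on RD. Most of that sum is the trypsin gene betaTry, itself a digestive enzyme. Without the 2 trypsins, the other 5, mex1, GATAe, nub, Alp4 and dve, summed to 1618.45 to 2281.19 on HFD and 1684.42 to 2034.11 on RD, and the diets overlapped. None of the 4 copper cell markers tested was called, and their sum was 1723.73 to 2207.61 on HFD and 1653.81 to 1870.02 on RD. Of 4 enteroendocrine markers tested, 3 were higher (pros, AstC and Orcokinin). Neuron markers rose in the same whole-body arrays, and their part in these 3 rises was not tested. Of 6 fat body markers tested, 3 were lower (apolpp, Lsp2 and Gnmt) and none higher. Their falls were of very unlike size, with log2 differences of -5.90 for Lsp2, -2.96 for Gnmt and -0.52 for apolpp. Apoltp (0.0038), FASN1 (-0.22) and Desat1 (-0.21) were not called. The 6 summed to 15255.33 to 18630.67 on HFD and 20882.47 to 25233.08 on RD. No tested gut or fat body marker was at 0, and the part of tissue makeup in the falls of the amylases and tobi was not tested.

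Among the other enzymes that release glucose or handle its storage forms, 5 of 16 tested genes fell and 1 rose, against backgrounds of 6.63% and 12.9%, and the list median was -0.23 against 0.0083 over all tested probe sets. The genes that fell most were maltases, which act on the products of amylase. Mal-A7 averaged 170.2 ± 21.1 on HFD and 340.1 ± 106 on RD (SD, n = 3 each), a log2 difference of -0.96 ± 0.21 (SE; limma, adjusted p = 0.0172). Mal-A3 was at -0.94 ± 0.14, Mal-A6 at -0.86 ± 0.21 and Mal-A4 at -0.58 ± 0.12. The fifth gene that fell, GCS2beta, codes for a subunit of the glucosidase that trims sugar chains on proteins in the endoplasmic reticulum and is not digestive. Mal-A5 rose by 0.27 ± 0.054. Trehalase (Treh), glycogen phosphorylase (Glyp) and the branching enzyme AGBE did not pass. With the control 3′/5′ ratio as a covariate, none of the 16 passed in either direction (list median -0.17). In that fit 266 of the 11261 tested probe sets passed. Centring each array on its median shifted the median difference over everything tested by -0.21, and 11 of the 16 fell and none rose. With that centring 4023 of the 11261 tested probe sets were called lower and 972 higher. With HFD array 1 left out 2 genes of this list fell, with HFD array 2, RD array 2 or RD array 3 left out 3 fell, and none rose with RD array 3 left out. Mal-A3 and Mal-A4 kept their call without any 1 array, while that of Mal-A7 was lost without HFD array 1 or 2, that of Mal-A6 without HFD array 1, RD array 2 or RD array 3, and that of GCS2beta without any array but HFD array 3.

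Sugar transporters showed few calls. Of 17 tested, 2 fell and 1 rose, shares near the backgrounds, with a median of -0.021. The sugar transporter gene nebu and the trehalose transporter gene Tret1-1 were at -0.33 ± 0.075 and -0.24 ± 0.072. MFS3 had signals of 57.47, 67.87 and 65.95 on HFD arrays 1 to 3 and 40.05, 32.15 and 21.26 on RD arrays 1 to 3, the last below the level of the filter. The calls of nebu and Tret1-1 were lost without HFD array 1, HFD array 3, RD array 2 or RD array 3, so that none fell, and that of MFS3 without HFD array 2, so that none rose. With the control 3′/5′ ratio as a covariate none of the 17 passed, in a fit where 266 of the 11261 tested probe sets did. Without RD array 1, 2 transporter genes rose.

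Of the genes listed as sugar-sensing transcription factors and their targets, those called went in the direction opposite to the amylases and tobi. Of 8 tested, 4 rose and none fell, against 12.9% of the tested probe sets called higher, and the list median was 0.25 against 0.0083 over all tested probe sets. Sugarbabe (sug), a zinc-finger factor that sugar induces, averaged 468 ± 67.3 on HFD and 307 ± 19.4 on RD (SD, n = 3 each), a log2 difference of 0.60 ± 0.11 (SE; limma, adjusted p = 0.0105). Cabut (cbt), another target of the sugar sensor, rose by 0.55 ± 0.055. The sensor itself is a pair of proteins, and both of its genes rose by little, Mondo by 0.24 ± 0.056 and bigmax by 0.26 ± 0.056. With median centring Mondo was at 0.036 (adjusted p = 0.714) and bigmax at 0.049 (adjusted p = 0.620), so their calls depend on the scaling of the arrays. Both calls were also lost without HFD array 2, HFD array 3 or RD array 3, each of which left 2 of the 8 genes higher, and sug and cbt kept theirs without any 1 array. With the control 3′/5′ ratio as a covariate cbt alone of the 8 passed, while sug was at 0.68 (adjusted p = 0.0777), bigmax at 0.25 (adjusted p = 0.159) and Mondo at 0.23 (adjusted p = 0.201). With median centring sug and cbt stayed higher and srp, a GATA factor, fell (-0.47, adjusted p = 0.0139). The gut factor GATAe (0.26 ± 0.13, adjusted p = 0.175) and Hnf4 (-0.040 ± 0.073, adjusted p = 0.726) did not pass.

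In activin signalling, which is known to repress amylase in the fly midgut, 3 of 7 tested genes rose and 1 fell, against backgrounds of 12.9% and 6.63%, with a median of 0.21 against 0.0083 over all tested probe sets. The ligand gene daw had signals of 356.66, 316.2 and 354.72 on HFD arrays 1 to 3, against 250.99, 262.08 and 227.72 on RD arrays 1 to 3. The groups did not overlap, and the log2 difference was 0.47 ± 0.091 (SE; limma, adjusted p = 0.0113). A second ligand gene, Actbeta, and the Smad partner Med were both at 0.54. Neuron and muscle markers rose in the same whole-body arrays, and their part in the rises of daw, Actbeta and Med was not tested. Actbeta was at 0.33 without a call under quantile normalization (adjusted p = 0.0892) or median centring (adjusted p = 0.0841), and its call was also lost without HFD array 2, HFD array 3, RD array 2 or RD array 3. Med was at 0.33 with median centring (adjusted p = 0.0494) and at 0.19 with the control 3′/5′ ratio as a covariate (adjusted p = 0.448), and its call was lost without HFD array 1, HFD array 3, RD array 2 or RD array 3. The type II receptor gene put was at -0.17 ± 0.049, a call lost without any 1 of the 6 arrays, and the type I receptor gene babo did not pass (-0.014 ± 0.069, adjusted p = 0.900). The call of daw was lost without RD array 3 (0.41, adjusted p = 0.0515), with median centring (0.26, adjusted p = 0.0607) and with the control 3′/5′ ratio as a covariate (0.46, adjusted p = 0.131); under the other alternatives the adjusted p of daw was under 0.05. With HFD array 3 or RD array 2 left out 1 activin gene rose, with RD array 3 left out 0 rose, and none fell without any 1 of the 6 arrays.

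Of 10 tested genes of insulin and adipokinetic hormone signalling, the inputs known for tobi, 4 rose and 1 fell, against backgrounds of 12.9% and 6.63%, with a median of 0.15 against 0.0083 over all tested probe sets. The 1 gene of 10 that fell is close to the background. The insulin-like peptide gene Ilp2, expressed in the insulin-producing cells of the brain, averaged 181 ± 23.8 on HFD and 116.9 ± 4.25 on RD (SD, n = 3 each), a log2 difference of 0.62 ± 0.12 (SE; limma, adjusted p = 0.0116). ImpL2, a secreted protein that binds insulin-like peptides and opposes them, rose by 0.86 ± 0.11. The insulin receptor gene InR and its substrate chico rose by 0.43 ± 0.099 and 0.33 ± 0.073. With median centring InR was at 0.22 (adjusted p = 0.0728) and chico at 0.12 (adjusted p = 0.255), so both calls depend on the scaling of the arrays. Neuron markers rose in the same arrays, and their part in the rise of Ilp2 was not tested. Ilp8, a relaxin-like peptide gene, averaged 324 ± 52.4 on HFD and 671 ± 128 on RD (SD, n = 3 each), a log2 difference of -1.04 ± 0.16. The receptor gene AkhR (-0.19 ± 0.17, adjusted p = 0.432), foxo (-0.11 ± 0.073, adjusted p = 0.313) and Ilp5 (-0.26 ± 0.24, adjusted p = 0.470) did not pass, although foxo was called lower with median centring (-0.32, adjusted p = 0.0213). Akh was under the filter and Ilp3 was not analysed here. Only 2 of the 10 rose when HFD array 1, 2 or 3 or RD array 3 was left out, since InR and chico lost their calls, while Ilp2, ImpL2 and Ilp8 kept theirs without any 1 array. With the control 3′/5′ ratio as a covariate, none of these 10 genes and none of the 7 activin genes passed. In that fit 266 of the 11261 tested probe sets passed.

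**Figure D4:**
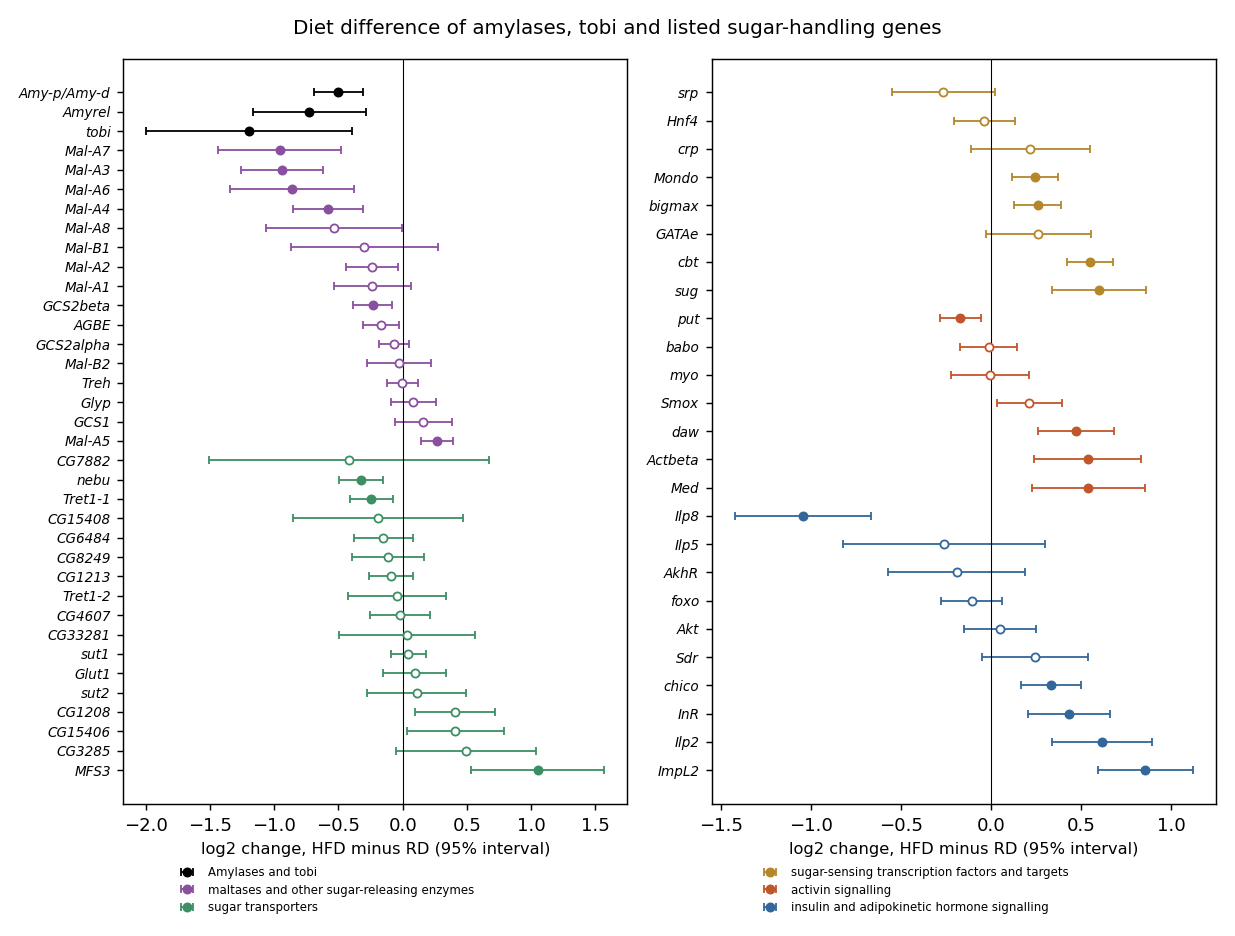
Log2 difference, HFD minus RD, with its 95% interval for the 3 probe sets of the amylases and tobi (black) and for every tested gene of 5 lists, 1 row per gene, ordered by size within a list. Filled points passed an adjusted p of 0.05 and open points did not. The amylases, tobi and the maltases Mal-A3, Mal-A4, Mal-A6 and Mal-A7 lie left of 0, while sug, cbt, daw, Ilp2 and ImpL2 lie right of it.

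The genes whose signals followed each member most closely over the 6 arrays were listed for the 3 probe sets. For each, the 5 with the highest Pearson's r were taken among tested probe sets of 1 gene whose range was no smaller than 0.5 times its own. This left 4909 candidates for Amy-p/Amy-d, 2842 for Amyrel and 1239 for tobi. The lists come from unlike pools and are not compared. The r values are descriptions of 6 points that share the diet difference. Amy-p/Amy-d was followed by l(3)mbt (r = 0.993), CG7329 (0.986), CG9672 (0.981), Ir7c (0.979) and CG4363 (0.975), and l(3)mbt and Ir7c were dim, with HFD signals of 15.21 to 28.13. Amyrel was followed by Bace (0.986), CG12374 (0.984), Cyp4s3 (0.980), Acbp2 (0.978) and tomb (0.977). Of these, Bace, an aspartyl protease gene, had signals of 4065.2 to 4979.77 on HFD and 6377.49 to 8692.19 on RD, and Acbp2, an acyl-CoA-binding protein gene, had 2283.17 to 2904.75 on HFD and 3489.66 to 4171.68 on RD. The gene tomb was dim, with HFD signals of 23.44 to 27.45, and was not called (limma, adjusted p = 0.0839). The probe sets nearest to tobi were CG6908 (0.975), Had1 (0.974), regucalcin (0.969), Mgstl (0.965) and CG9396 (0.961). Like tobi, all 5 had their lowest RD signal on RD array 1 and their highest HFD signal on HFD array 3, but in these genes RD array 1 stayed above every HFD array. The gap was narrow for Mgstl, with 61.91 on RD array 1 and 58.83 on HFD array 3. It was also narrow for regucalcin, with 26 and 23.59. The gene regucalcin was dim, and these signals lay below the filter level of 27.95.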

How the data were processed

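Signals of 18952 probe sets, 183 of them controls, were deposited for 3 HFD and 3 RD arrays, and sample titles gave the groups. The deposited values are linear intensity values from MAS5 per the submitters' processing notes, which give no version. No column was of a sample not listed. Controls were left out, 1 was added before log2, and the 11261 probe sets with a mean above the 40th percentile (log2 4.855) were tested two-sided with limma 3.58.1 under R 4.3.3, with a trend of the variance on intensity in eBayes. P-values were adjusted over them by Benjamini-Hochberg, with a threshold of 0.05. No further normalization was applied. The number of arrays limits the precision.

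Probe sets were named by the platform annotation given beside the table. All 4 members matched the Release 6 reference table by symbol. Coordinates are left out because that annotation states no genome build. The members and gene lists were chosen with earlier results of these data known. A gene of a list was taken by its brightest tested probe set. By rule, the text names every member, up to 4 called genes per list by size of change (or, in a list with no call, the 2 lowest p) and 13 fixed regulators; GCS2beta, Mal-A5 and chico complete the calls of a list, and AGBE, Treh and Glyp were named after their values were seen. Protein relatives were not searched here. The fit was tested on data simulated for HFD against RD in which 200 of the 11261 probe sets differed: it called 82% of those shifted by 0.5 in log2 and 100% of those shifted by 1, and 4.21% of calls were false. Noise in that simulation was drawn separately for each probe set, with an SD smoothed over probe sets of similar brightness. The rates therefore do not cover probe sets noisier than that, such as tobi (SD 0.58 against a median of 0.13). Effects shared by the probe sets of an array are not covered either. Plots used matplotlib 3.10.9 (Python 3.11.15).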

Additional observations from a re-analysis of the deposited data

How the results depend on the processing

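All 3 probe sets stayed lower on HFD in every alternative that held them, and the size ranged from -0.73 to -0.41 for Amy-p/Amy-d, -1.14 to -0.38 for Amyrel and -1.61 to -0.48 for tobi. For all 3 the largest fall was the one with array weights. Calls were lost for Amy-p/Amy-d with the control 3′/5′ ratio as a covariate (-0.57), for Amyrel with that ratio (-0.64), and for tobi with that ratio (-0.48), and, at an unchanged -1.20, without the filter (adjusted p = 0.0609), with the filter at the 60th percentile (0.0545), without the trend (0.0800) and with robust eBayes (0.0898); the filter at the 60th percentile removed Amyrel. Without 1 array the difference was -0.55 to -0.42, -0.87 to -0.59 and -1.58 to -0.96 for Amy-p/Amy-d, Amyrel and tobi. The cause of these lost calls was not tested. Same-numbered arrays of the diets had deviations that correlated at 0.0719, 0.102 and 0.027. The labels do not pair them, and correlations from so few arrays cannot exclude a pairing. With the replicate number as a block the differences were -0.50, -0.73 and -1.20 (limma, adjusted p = 0.000972, 0.0154 and 0.00557). Their SEs were 0.054, 0.16 and 0.20, smaller than without the block. In that fit 2560 probe sets passed, 8 genes of the maltase list fell and no activin gene fell.

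The 2196 calls (1449 higher, 747 lower) became 4995 with median centring (4023 lower), 1361 with the filter at the 60th percentile (788 higher), 6129 with array weights (3532 higher, 2597 lower), 266 with the control ratio (213 higher, 53 lower) and 1008 to 2707 without 1 array (763 to 1867 higher, 245 to 840 lower); 1150 were lower with quantile normalization and 463 without the trend. Of the calls, 66% were higher and 34% lower, against 52% and 48% after quantile normalization and 19.5% and 80.5% after centring. The array weights were 6.31 for HFD array 2, 4.91 for RD array 3 and 0.401 to 0.449 for the others, and their estimation stopped before it converged.

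List genes higher and lower were, for maltases (1 and 5), 0 and 11 after median centring, 2 and 8 under array weights, 0 and 0 with the control ratio, 3 lower without the trend, and 0 to 1 and 2 to 6 without 1 array. For transporters (1 and 2), 3 and 5 passed with array weights, 0 and 0 with the control ratio, 0 and 1 with the filter at the 60th percentile, and 0 to 2 in either direction without 1 array; 4 were lower with median centring, 1 with quantile normalization or no filter and 0 without the trend. For sugar sensing (4 and 0), 2 and 1 passed with median centring, 1 higher with the control ratio and 2 to 6 higher, 0 lower, without 1 array. For activin (3 and 1), 1 was higher with median centring, 0 with the control ratio and 0 to 4 without 1 array, and 0 were lower without the filter, with the stricter filter, without the trend, with the control ratio or without 1 array. For insulin (4 and 1), 2 and 2 passed with median centring, 0 and 0 with the control ratio, 3 lower with array weights, and 2 to 4 higher and 1 lower without 1 array. Signs turned for babo without RD array 1 (0.027) or HFD array 1 (0.0068; -0.061 to 0.027 without 1 array), AkhR with array weights (0.056) or the control ratio (0.20), Hnf4 with that ratio (0.020) or without HFD array 1 (0.017; -0.10 to 0.017 without 1 array), none of them called, for Amyrel minus Amy-p/Amy-d with 50 added (0.11), and, in an alternative chosen after seeing the data, for tobi minus Amy-p/Amy-d (0.096) and tobi minus Amyrel (0.17) with the control ratio.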

Other observations

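In the reference table Amy-p and Amy-d lie on chromosome arm 2R with 1 protein-coding gene, Spn53F, between them, Amyrel lies elsewhere on 2R, and tobi lies on 3R. The 5 protein-coding genes on either side of each member, a set chosen after the values of the members were seen, numbered 31, and 18 of them were tested. Of these 18, 4 rose and 1 fell, against backgrounds of 12.9% and 6.63%, and the median log2 difference was -0.037 against 0.0083 over all tested probe sets. The 1 of 18 that fell is close to the background. Beside Amy-p and Amy-d, none of 7 tested neighbours fell (-0.32 to 0.53), and beside tobi none of 5 did (-0.23 to 0.69), where the neighbours CHKov1 and CHKov2 rose by 0.69 ± 0.10 and 0.49 ± 0.14. Beside Amyrel, CG8303 fell by 0.89 and Alk rose by 1.03 among 6 tested.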
